A study of Mus musculus with 18 samples.

Results

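RNA regions of mouse liver that survived RNase digestion after incubation with MDA5 were compared between editing-deficient and editing-competent mice at the level of genes. A gene of the GENCODE M21 annotation was called MDA5-protected in a library if at least 1 base of its body, on its own strand, lay under a peak of that library. Of 55536 annotated genes, 1707 were protected in at least 1 of the 6 MDA5-protected libraries. Of these, 89 (5.21%) held a peak in 3 of 3 editing-deficient and 0 of 3 control libraries, 13 (0.762%) showed the reverse, and 174 (10.2%) held a peak in all 6.

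The editing-deficient mice were Adar-/-; Mavs-/-, so they lacked both the editing enzyme ADAR1 and the signalling adaptor MAVS. The controls were Mavs-/- (their titles call them wild-type), so that all animals, at 8 to 9 days of age, lacked MAVS and the groups differed in Adar. Liver RNA was either left undigested (Input), digested by RNases alone (RNase-only) or digested after binding to recombinant mouse MDA5 without its signalling domains, the CARDs (MDA5-protected), with 3 libraries for each genotype and fraction. The replicates were biological according to the study's methods. Bulk RNA was used, so fewer cells of a type and less RNA per cell cannot be told apart.

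MDA5, the product of Ifih1, is a cytoplasmic sensor that assembles along long double-stranded RNA and signals through MAVS. ADAR1 converts adenosine to inosine within double-stranded RNA, which weakens its base pairing, and loss of ADAR1 in mice is lethal unless this sensing pathway is interrupted. Double strands in cellular RNA often arise where copies of a repeat element in opposite orientation lie in the same transcript, and introns of long genes hold many such copies.

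The 6 lists of MDA5-protected peaks held 1180 to 2868 peaks, of which 57.8% to 70.7% lay in a gene on the same strand. The deposited lists gave no read counts, and the depth behind a peak is unknown. All 8 hepatocyte markers (the genes of liver parenchyma) had an exon peak in each of the 6 Input libraries, whereas 9, 8 and 6 of 29 markers of red cell precursors had one in the editing-deficient and 13, 8 and 21 in the Mavs-/- libraries. Endothelial markers had an Input exon peak in 8, 8 and 9 of 14 genes in the editing-deficient and in 2, 4 and 7 in the Mavs-/- libraries, and the part of these differences in the results was not tested. Adar had an Input exon peak in 2 of 3 editing-deficient and 0 of 3 Mavs-/- libraries, and Mavs had none in any of the 6. Such peaks do not check the deletions, since the deleted parts of the genes were not given in the labels.

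Several protected stretches lay wholly in exons outside untranslated regions, and they are printed to show what kinds of sequence the classes held. Each line gives the bases covered by peaks in every library that defines the class, 5′ to 3′ on the strand of the gene, from the GENCODE M21 transcripts (GRCm38). Among genes protected only in editing-deficient mice, the unclassified transcript Gm45084 (chr7:118229472-118229609, minus strand) held the first stretch. Its letters resemble the mouse B2 element, a short interspersed repeat. No repeat annotation was used here. The other is coding sequence of Zc3h13, which encodes a component of the RNA adenosine methylation complex (chr14:75327852-75328030, plus strand).
Gm45084: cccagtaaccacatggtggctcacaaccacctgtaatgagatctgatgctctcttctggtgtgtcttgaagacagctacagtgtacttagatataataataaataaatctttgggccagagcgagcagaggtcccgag
Zc3h13: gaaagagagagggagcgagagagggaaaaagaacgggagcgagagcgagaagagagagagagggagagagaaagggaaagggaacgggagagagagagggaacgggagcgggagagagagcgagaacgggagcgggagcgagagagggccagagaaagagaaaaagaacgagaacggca

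Among genes protected only in Mavs-/- mice, most of the exonic stretches outside untranslated regions were short and rich in G and C. They lay in the antisense transcript 4930537H20Rik (chr3:90293260-90293319, minus strand), in the antisense transcript 9330160F10Rik (chr11:69059739-69059792, minus strand), in the unclassified transcript Gm10461 (chr5:32611447-32611496, minus strand) and in the pseudogene Gm12896 (chr4:122122847-122122926, plus strand). G and C made up 75% to 88.3% of these 4 stretches. The stretch of the mitochondrial cysteine tRNA mt-Tc, also of this class, had 36.4%. In the stretches printed for the editing-deficient class the content was 45.7% and 57.5%. Such stretches were not particular to the Mavs-/- class, since genes of all 6 libraries also held them, for example Zfp704 (85 bases, 91.8%), Dmwd (62 bases, 91.9%), Kif13a (84 bases, 91.7%) and Gm42984 (71 bases, 87.3%), named after their values were seen.
4930537H20Rik: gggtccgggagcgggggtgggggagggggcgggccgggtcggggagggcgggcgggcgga
9330160F10Rik: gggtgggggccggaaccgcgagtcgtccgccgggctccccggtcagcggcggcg
Gm10461: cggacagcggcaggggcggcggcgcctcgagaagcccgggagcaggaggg
Gm12896: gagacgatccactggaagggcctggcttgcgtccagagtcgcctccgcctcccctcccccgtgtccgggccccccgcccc

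To ask whether loss of editing changed how many genes carried protected RNA, the protected genes were counted in each library. The 3 editing-deficient libraries held 689, 1048 and 1110 protected genes and the 3 Mavs-/- libraries 625, 474 and 500. Every editing-deficient library was therefore above every Mavs-/- library, with means of 949 ± 227 (SD, n = 3) and 533 ± 80.7 (SD, n = 3). The two-sided exact permutation test gave p = 0.10, the smallest that 3 against 3 libraries allow (0.50 after Benjamini-Hochberg adjustment over 5 comparisons). The editing-deficient lists were also longer in peaks for 2 of 3 libraries (1636, 2768 and 2868 against 1829, 1220 and 1180). When each list was reduced to its 1180 strongest peaks, the groups overlapped, with 526, 484 and 490 genes in editing-deficient and 424, 460 and 500 in Mavs-/- libraries. The excess of 416 genes per library fell to 38.7 (exact permutation test, p = 0.30).

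**Figure D1:**
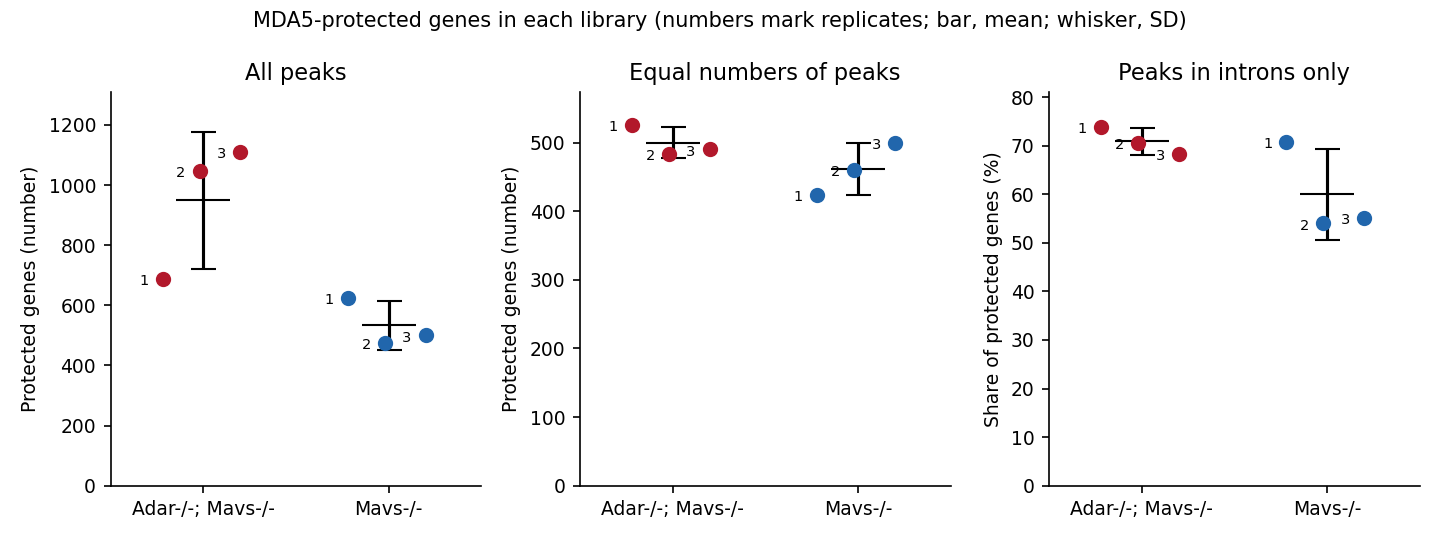
MDA5-protected genes in each library by genotype: number with all peaks, number with equal numbers of peaks per library, and the share of protected genes whose peaks all miss exons (%). Points are libraries numbered by replicate, the bar is the mean and the whisker the SD; the 2 genotypes are apart with all peaks (689 to 1110 against 474 to 625) and overlap with equal numbers.

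Most protected genes carried protected RNA in introns alone. In 73.9%, 70.5% and 68.4% of the protected genes of the editing-deficient libraries, and in 70.7%, 54.0% and 55.2% of those of the Mavs-/- libraries, all peaks missed every exon of the gene. The means were 70.9% ± 2.77 and 59.98% ± 9.32 (SD, n = 3 each; exact permutation test, p = 0.30, adjusted 0.50). Mavs-/- replicate 1 lay among the editing-deficient values, and without it the difference rose from 10.9 to 16.3 percentage points (exact permutation test, p = 0.10). A measure chosen after these values were seen was the share of protected genes with a peak within 1000 bases of the gene start, which was 13.5%, 17.1% and 19.3% in editing-deficient and 21.1%, 39.0% and 40.2% in Mavs-/- libraries. Genes with such a peak numbered 93, 179 and 214 against 132, 185 and 201, so that the genotypes overlapped. Genes without one numbered 596, 869 and 896 against 493, 289 and 299. This measure was not tested.

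Protected genes were long, where the rule of at least 1 base of the gene body under a peak itself favours long genes. The median length of protected genes was 81461, 62606 and 60595 bp in the editing-deficient libraries and 71078, 57183 and 60558 bp in the Mavs-/- libraries, compared with 17318 bp for all protein-coding genes. The genotypes overlapped (means 68221 ± 11511 and 62940 ± 7247 bp, SD, n = 3 each; exact permutation test, p = 0.50, adjusted 0.60). Without editing-deficient replicate 1, which had the longest genes, the difference of 5281 bp turned to -1339 bp. Genes of all 6 libraries held a median of 243, 407 and 356 protected bases in editing-deficient and 371, 282 and 220 in Mavs-/- libraries (exact permutation test, p = 0.60, adjusted 0.60).

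The share of protein-coding genes that were protected rose with length in every library, both among genes with and without a peak of an Input library in an exon. A longer gene body offers more bases for a peak to touch, and rates per base were not computed. Of genes over 300 kb with an Input exon peak (63 genes), 47.6% ± 4.20 were protected in editing-deficient and 29.6% ± 3.304 in Mavs-/- libraries (SD, n = 3 each). Of genes over 300 kb without one (504 genes), the shares were 17.4% ± 0.802 and 10.6% ± 3.15. Under 10 kb they were 3.27% ± 1.39 and 1.85% ± 0.2498 with an Input exon peak and 0.659% ± 0.152 and 0.432% ± 0.0530 without. Genes with an Input exon peak were thus protected more often within each length class. Input peaks mark abundant exonic RNA, and the Input of the same genotype was the authors' control when they called the digested peaks.

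**Figure D2:**
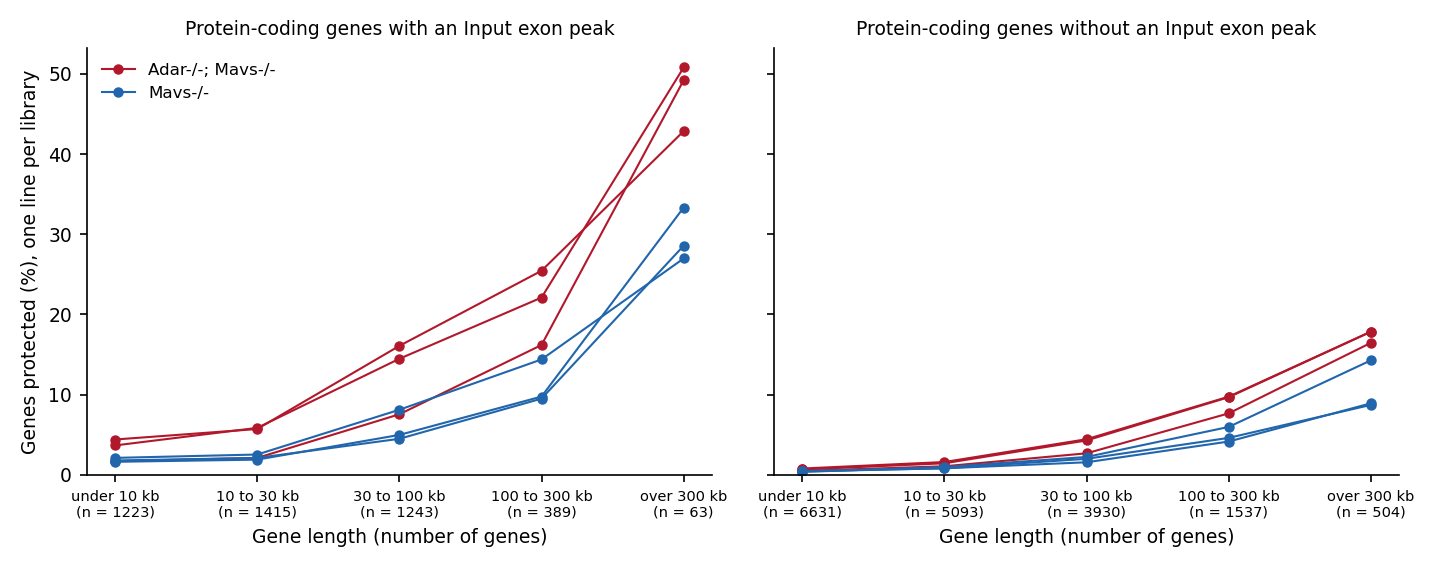
Share of protein-coding genes protected (%, vertical axis) in 5 classes of gene length, for genes with (left) and without (right) an exon peak in at least 1 of 6 Input libraries; each line is 1 library. In genes over 300 kb with an Input exon peak the means were 47.6% (editing-deficient) and 29.6% (Mavs-/-).

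Across all protected genes, 36.6%, 42.6% and 43.5% in the editing-deficient and 40%, 37.8% and 36.4% in the Mavs-/- libraries had an Input exon peak. These shares overlapped (40.9% ± 3.76 and 38.1% ± 1.82, SD, n = 3 each; exact permutation test, p = 0.30, adjusted 0.50). Of all protein-coding genes, 19.7% had one.

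Genes were then sorted by the number of libraries that protected them. Among the 22028 annotated protein-coding genes, the 88, 7 and 149 coding members of these classes were 0.399%, 0.0318% and 0.676%. Just outside the classes stood 206 genes in 2 of 3 editing-deficient and 0 Mavs-/- libraries and 72 genes in 3 editing-deficient and 1 Mavs-/- library, whereas 20 genes were in 2 of 3 Mavs-/- and no editing-deficient library. The unequal class sizes went with the unequal lists. With equal numbers of peaks the classes held 33 and 25 genes, of which 22 of 33 and 9 of 25 belonged to the classes of the full lists.

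**Figure D3:**
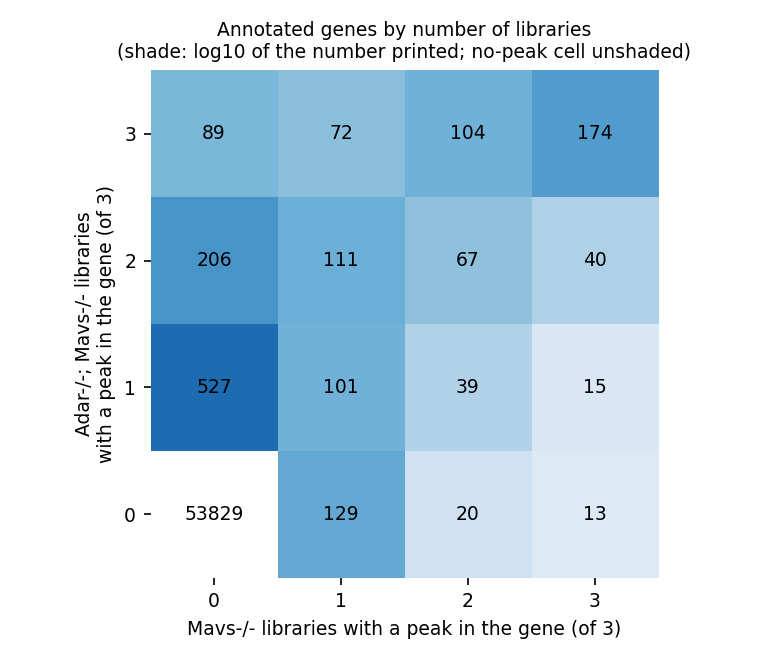
Number of annotated genes by how many of 3 editing-deficient (vertical axis) and how many of 3 Mavs-/- libraries (horizontal axis) held an MDA5-protected peak in them. The corner cells of the classes hold 89, 13 and 174 genes, and 53829 genes had no peak.

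Leaving out a library relaxes the rule of a class from 3 to 2 libraries, so that a class cannot shrink. Leaving out editing-deficient replicate 1, the smallest of its group, raised the editing-deficient class from 89 to 202 genes, and leaving out Mavs-/- replicate 1, the largest of its group, raised it to 145. Without editing-deficient replicate 2 or 3 it held 134 or 137 genes. The Mavs-/- class rose from 13 to 22 without editing-deficient replicate 3 or without Mavs-/- replicate 3, and to 21 without Mavs-/- replicate 1.

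The 89 genes protected only in editing-deficient libraries were nearly all protein-coding (88). Their median length was 81461 bp (95% interval of the median, 60742 to 106505 bp) and 42.7% were at least 100 kb long. The 174 genes of all 6 libraries had a similar median of 79211 bp (57769 to 101640 bp), and the 13 Mavs-/- genes one of 19099 bp (1683 to 102239 bp). Of the 13, 7 were protein-coding, and with coding genes only the medians of the editing-deficient, Mavs-/- and 6-library classes were 81558, 67264 and 89264 bp. All genes protected anywhere had a median of 57678 bp. In 72 of the 89 genes (80.9%) every peak missed the exons, compared with 106 of the 174 (60.9%), 2 of the 13 (15.4%) and 65.0% of the 1707. In 61 of the 89 genes, at least 1 base was covered in all 3 editing-deficient libraries, while in the others no base was common to all 3. A single peak in each of the 3 libraries was seen in 37 genes. Of the 89 genes, 8 shared their common stretch with a neighbour on the same strand, in 4 pairs (Scp2 and Podn, Smg1 and Gm45084, Fgfr2 and Chst15, Hacl1 and Gm49387), and each pair rests on the same peaks.

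The classes also differed in protected RNA near the gene start. Of the 89 genes, 6 (6.74%) had a peak within 1000 bases of the start, compared with 10 of the 13 Mavs-/- genes (76.9%), 58 of the 174 genes of all 6 libraries (33.3%) and 21.1% of the 1707. Peaks in the Mavs-/- genes were short, with a median of 77 bases, against 226 in the 89 genes, 258 in the 174 and 223 in all. On the opposite strand of the same library, a peak overlapped a protected peak in 9 of the 13 Mavs-/- genes (69.2%), in 13 of the 89 (14.6%), in 41 of the 174 (23.6%) and in 9.02% of the 1707. Gene size bears on the distance, since in mt-Tc (66 bp) and Gm12896 (226 bp) any peak must lie within 1000 bases of the start. Yes1 and Gm10461 overlap on opposite strands at 1 place and enter both the start and the opposite-strand counts. These shares and peak lengths describe chosen classes and were not tested.

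**Figure D4:**
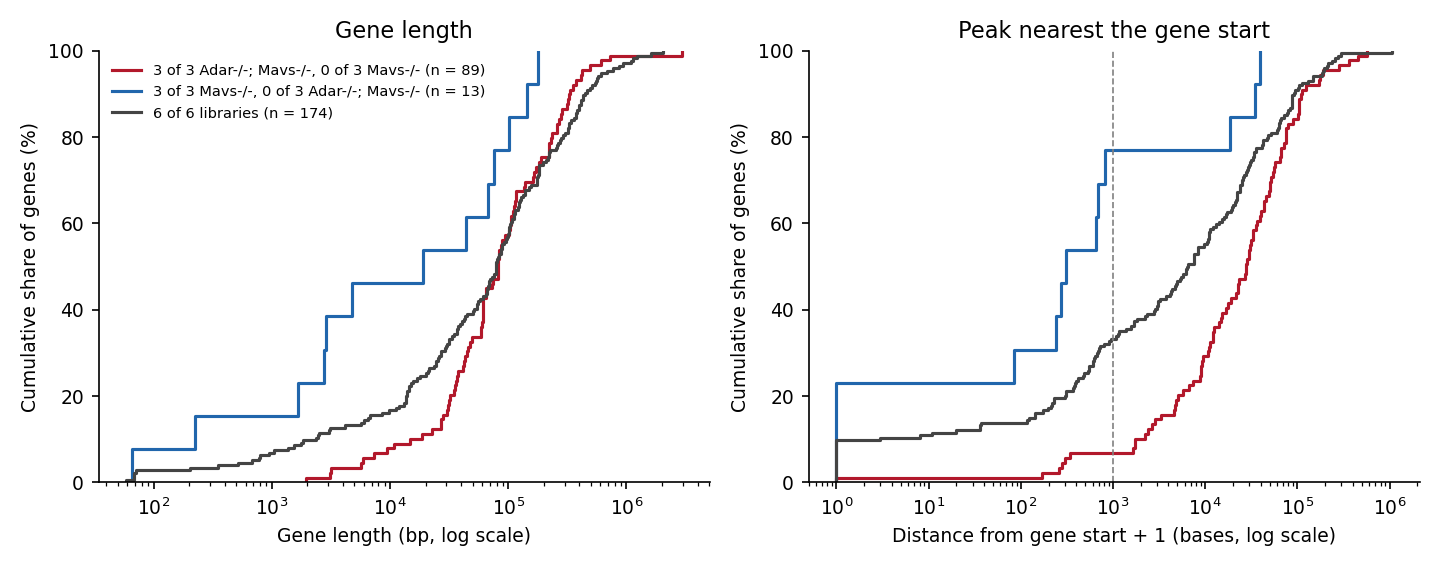
Cumulative share of genes (%, vertical axis) by gene length in bp (left) and by distance of the nearest MDA5-protected peak from the gene start in bases, plus 1 (right), both on log scales, for the 3 classes. The dashed line marks 1000 bases, within which lay 10 of 13 Mavs-/- genes and 6 of 89 editing-deficient genes.

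The RNase-only fraction, digested without MDA5, bears on the same genes. A protected peak overlapped an RNase-only peak on its strand in 65 of the 89 genes for RNase-only peaks of the editing-deficient mice and in 48 for those of the Mavs-/- mice. Over all 1707 protected genes these numbers were 952 and 841. RNase-only peaks lay somewhere in the gene body in 74 and 56 of the 89 genes, and in 1154 and 1035 of the 1707. In the 174 genes of all 6 libraries the overlaps were 142 and 145. When MDA5-protected peaks over an RNase-only peak of the same genotype were left out, the editing-deficient class held 46 genes, 32 of them from the 89, and the class of all 6 held 48. The Mavs-/- class held 14, 8 of them from the 13. The 14 members of the 89 with no RNase-only peak in any of 6 libraries were Abhd3, Acbd3, Atl3, Eif1a, Epb41l5, Hltf, Lhfp, Neurl1b, Nr1d2, Orc4, Pced1b, Rmdn2, Sec16a and Tnks2, named after their values were seen.

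Input peaks, listed without counts, were also set beside the classes. An Input exon peak was present in 42 of the 89 genes (47.2%, Clopper-Pearson 95% interval 36.5% to 58.1%), in 65 of the 174 (37.4%, 30.2% to 45.0%), in 6 of the 13 (46.2%, 19.2% to 74.9%) and in 43.8% of the 1707. These intervals cover counting error only. By library, 24, 29 and 34 of the 89 genes had one in editing-deficient and 13, 9 and 17 in Mavs-/- mice. Of all 1707 protected genes, 27.5%, 31.8% and 31.7% had one in the editing-deficient and 20.04%, 16.2% and 25.9% in the Mavs-/- Input libraries, so that the same order held beyond the 89. All protein-coding genes had one in 11.1%, 13.9% and 13.9% against 8.11%, 6.64% and 11.1%, and the 174 genes in 39, 46 and 40 against 38, 36 and 44. Of the 89, 32 had an Input exon peak in more editing-deficient than Mavs-/- libraries, and 2 in fewer. Mon2, Cyp2c29, Acsl4, Frmd4b, Sil1 and Tbc1d24 had one in 3 editing-deficient and 0 Mavs-/- libraries, and Aqp8 the reverse. The part of RNA abundance in the classes was not tested.

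The editing-deficient class held genes of liver enzymes and of a transporter. Cyp2c29, a cytochrome P450 of drug metabolism (chr19:39269405-39330713), held 617, 1704 and 1584 protected bases in the 3 editing-deficient libraries and 0 in each Mavs-/- library. All of its peaks missed the exons, and RNase-only peaks were present in 3 of 3 editing-deficient and 0 of 3 Mavs-/- libraries. The gene kept its class with equal numbers of peaks, without RNase-only overlaps and at a minimum area of 1000. Other members, among them Abcc2, Scp2, Mon2, Tgfbr1, Hdac8, Tet2, Ncoa1 and Zfp931, kept it neither with equal numbers nor without RNase-only overlaps. Abcc2, which exports conjugates into bile (chr19:43782192-43840740), held 178, 363 and 176 bases at places that differed between libraries, a mean of 239 against a median of 307 over the class. Scp2, a peroxisomal thiolase and sterol carrier (chr4:108043839-108144998), held 292, 1154 and 875 bases, in part shared with Podn. Eci2, an isomerase of unsaturated fatty acid oxidation (chr13:34977748-35027096), held 207, 1463 and 736. Replicate 1 was the lowest of the 3 in Cyp2c29, Scp2 and Eci2.

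Other members with roles in lipid metabolism were Hacl1, a peroxisomal lyase of branched fatty acids, Acot12, an acetyl-CoA hydrolase, Acsl4, which activates arachidonate, Hsd17b11, a lipid droplet dehydrogenase, and Abhd3, a phospholipase. These 5 were named after their values were seen, and their mean protected bases in the editing-deficient libraries ranged from 218 in Hacl1 to 656 in Acsl4. In the list of lipid metabolism genes, 9 of 31 genes were protected anywhere, in 2, 7 and 5 genes of the editing-deficient and 0, 0 and 0 of the Mavs-/- libraries. Of the list, 4 genes, among them Cpt1a, Scp2 and Slc27a2, were in at least 2 editing-deficient and 0 Mavs-/- libraries. Of the 31 genes, 1 (Scp2, 3.23%) was in the editing-deficient class. In the list of xenobiotic and bile acid genes, 11 of 27 were protected anywhere, in 5, 8 and 8 against 5, 3 and 3 genes, with Cyp2c29 and Abcc2 in the editing-deficient class and Abcb11, the bile salt export pump, and Dpyd in all 6 libraries. The choice of the members fixes these directions, and both lists were drawn with earlier results of these data known. Of all 22028 protein-coding genes, 1542 were protected anywhere and 0.399% were in the editing-deficient class. By library, 634, 953 and 1011 protein-coding genes were protected in editing-deficient and 563, 408 and 433 in Mavs-/- mice.

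Adgb, an androglobin gene expressed in testis (chr10:10335703-10472326), had the largest mean extent of the class and held 1571, 1665 and 1387 bases in 4, 4 and 3 peaks, all in introns, and no exon peak in any Input library. The 3 libraries were close to each other, and 443 bases in 4 stretches were covered in all 3, the longest at chr10:10365253-10365460. RNase-only peaks lay in the gene in all 6 libraries. Mon2, a regulator of endosome to Golgi traffic (chr10:122992060-123076505), held 289, 1703 and 2502 bases and no base common to all 3 libraries. Cep85l, a centrosomal protein gene (chr10:53273443-53379947), held 208, 1647 and 1275.

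Receptor and ubiquitin genes followed. Tgfbr1, the type I receptor for TGF-beta (chr4:47353222-47414931), held 523, 1108 and 1218 bases, with none common to all 3 libraries. Rnf217, a ubiquitin ligase (chr10:31493193-31609184), held 570, 1130 and 830, of which 446 were common to all 3. Scfd2, a relative of vesicle fusion proteins (chr5:74204816-74531759), held 664, 870 and 854, with a common stretch of 313 bases. Hdac8, a histone deacetylase (chrX:102284639-102505359), held 254, 417 and 1525, so that 1 library was far above the others. All 4 genes carried these bases in introns, and none had an Input exon peak.

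Members that regulate transcription included Tet2, Ncoa1 and Nr0b2. Tet2, which oxidises methylated cytosine (chr3:133463679-133545139), held 223, 260 and 278 bases in 1 intronic peak per library, with a common stretch of 216 bases. Ncoa1, a coactivator of nuclear receptors (chr12:4247362-4477182), held 173, 545 and 598 at differing places. Nr0b2, the orphan receptor that represses bile acid synthesis, held 381, 281 and 253 bases outside exons (named after its values were seen), 248 of them common to all 3 libraries. Of 40 chromatin regulators, 14 were protected anywhere, 2 (Tet2 and Ncoa1) in the editing-deficient class, 1 (Chd7) in the Mavs-/- class and 1 (Asxl2) in all 6 libraries. Of 458 zinc finger genes, 34 (7.42%) were protected anywhere, 2 (0.437%) in the editing-deficient class and 6 (1.31%) in all 6 libraries, where 1542 of the 22028 protein-coding genes were protected anywhere and 0.399% and 0.676% were in these classes. Zfp799 (chr17:32815449-32830261) held 136, 326 and 395 bases. Zfp931 (chr2:178067695-178078476) held 253, 700 and 1492 bases, with an exon covered in each library. Flt1, a receptor for vascular endothelial growth factor and the 1 endothelial marker in the class (chr5:147561604-147726011), held 119, 151 and 199 bases in introns at differing places. Of the 19 gene lists, 14 had no member in either class of 3 against 0.

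In 13 of the 89 genes an exon was covered in all 3 editing-deficient libraries, among them Abhd3, Aqp8, Cdk9, Gm45084, Golm1, Gpa33, Hoxb13, Ppp1r1b, S100a16, Slc26a3, Zc3h13 and Zfp931. Several of these are markers of the large bowel, and the origin of their peaks in digested liver RNA was not tested. Hoxb13, a homeobox gene of the hindgut and prostate (chr11:96194316-96197447), held 1002, 684 and 292 bases, Gpa33 (with Slc26a3 and Aqp8 named after their values were seen), a surface antigen of intestinal epithelium, 652, 262 and 299, Slc26a3, its chloride exchanger, 419, 225 and 425, and Aqp8, a water channel, 501, 226 and 366. The RNase-only libraries held exon peaks of Hoxb13, Gpa33 and Slc26a3 in all 6 cases, and of Aqp8 in 5, in both genotypes. No Input library held an exon peak of the first 3.

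The same held for a wider list of 50 genes of intestinal epithelium, drawn up after these values were seen. Exon peaks of 33 to 40 of these genes were present in each RNase-only library, of 15 to 24 in each MDA5-protected library and of 1 to 4 in each Input library. In 28 genes the peak was in all 6 RNase-only and in no Input library, among them Cdh17, Vil1, Muc2 and Krt20. For 10 of the 50 genes no exon peak was found in any of the 18 libraries. In the MDA5-protected fraction the numbers of genes with an exon peak were 24, 23 and 24 in editing-deficient and 17, 16 and 15 in Mavs-/- mice. Over all annotated genes, with peaks anywhere in the gene body, the numbers were 689, 1048 and 1110 against 625, 474 and 500. Between fractions, hepatocyte markers stood the other way round, with 8 of 8 in every Input library. They numbered 0 in 5 RNase-only libraries and 1 in the other, and 0 in every MDA5-protected library. Markers of red cell precursors, Kupffer cells and endothelium were also fewer in every RNase-only than in any Input library. Of 7 bile duct cell markers, 4, 3 and 3 (editing-deficient) and 3, 3 and 2 (Mavs-/-) had an RNase-only exon peak. In Input they numbered 0, 1 and 1 against 0, 1 and 0. Their list shares Krt19 and Epcam with the intestinal one. Markers of stellate cells and fibroblasts overlapped between RNase-only and Input libraries. The authors called the digested peaks with the Input of the same genotype as control. RNA abundant in Input is thereby less likely to give a digested peak, so these counts do not compare RNA amounts between fractions. Of the intestinal genes, 4 were in the editing-deficient class, 0 in the Mavs-/- class and 9 (Car1, Clca1, Epcam, Guca2a, Mptx1, Muc13, Muc3, Oit1 and Tspan1) in the class of all 6. Over all 22028 protein-coding genes these classes held 0.399%, 0.0318% and 0.676%. The list was drawn up with these values known, so the comparison is no test. Without the intestinal genes the classes held 85, 13 and 165 genes. A wider exclusion, of the 876 genes with exon peaks in RNase-only libraries of both genotypes and in no Input library, left 80, 12 and 144.

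**Figure D5:**
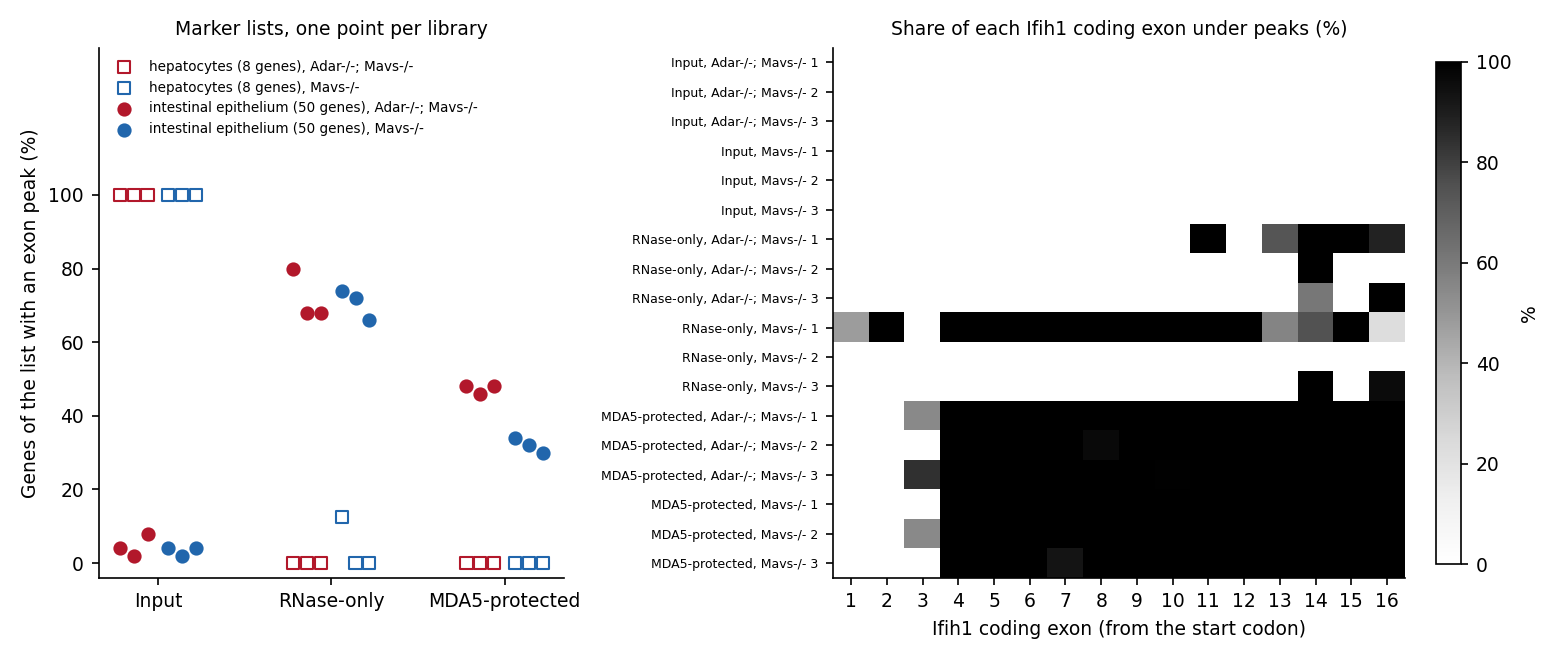
Left, share of 8 hepatocyte and 50 intestinal marker genes with an exon peak (%) in each of 18 libraries by fraction; right, share of each of the 16 coding exons of Ifih1 under peaks (%, grey scale) in the same libraries. Intestinal genes were at 33 to 40 of 50 in RNase-only and 1 to 4 in Input libraries, and coding exons 1 and 2 of Ifih1 were bare in all 6 MDA5-protected libraries.

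The 13 genes of 3 of 3 Mavs-/- and 0 of 3 editing-deficient libraries were 7 protein-coding genes, 3 antisense transcripts, a processed pseudogene, an unclassified transcript and mt-Tc. All 13 had a stretch common to the 3 libraries. Chd7, a chromatin remodeller (chr4:8690406-8867659), held 289, 116 and 215 bases in the Mavs-/- libraries, in untranslated sequence 881 bases from the gene start, and 0 in each editing-deficient library. Its exons also held RNase-only peaks in 3 of 3 Mavs-/- and 0 of 3 editing-deficient libraries. Cyb5r3, a reductase of cytochrome b5 (chr15:83153494-83172592), held 161, 191 and 151, in untranslated sequence 18403 bases from the start, and had Input exon peaks in all 6 libraries. RNase-only exon peaks of Cyb5r3 were present in 3 of 3 Mavs-/- and 2 of 3 editing-deficient libraries. Neither gene kept its class without RNase-only overlaps.

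Other coding genes held short stretches, which were of similar size in the 3 libraries except in Tnfrsf11a. Morc3, a nuclear ATPase (chr16:93832121-93876073), held 96, 90 and 95 bases. Its stretch lay opposite a stretch of Gm30881 on the minus strand, which was covered in all 6 libraries. Atp5g3, a subunit of ATP synthase (chr2:73908447-73911326), held 54, 49 and 64, and Tnfrsf11a, the receptor of RANK ligand (chr1:105780718-105847981), 34, 85 and 35. Yes1, a kinase of the Src family (chr5:32611171-32687057), held 58, 39 and 52. The stretch of Yes1 lay opposite that of Gm10461 printed above and of Gm15614, so 3 of the 13 genes come from 1 place. Of the noncoding genes, Gm12896 held 133, 83 and 153 bases, 4930537H20Rik 62, 69 and 70, and mt-Tc 66 in each library. With strand ignored, 7 of the 13 kept their class, and the others gained a peak of an editing-deficient library from the other strand.

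The 174 genes of all 6 libraries included genes with many protected bases in introns. Dpyd, the first enzyme of pyrimidine breakdown (chr3:118562129-119432924), held 6970, 19558 and 20506 bases in editing-deficient and 14978, 12605 and 6792 in Mavs-/- libraries. The groups overlapped, as they did in Slc22a27, an organic anion transporter (chr19:7864388-7966027), with 6446, 11255 and 3644 against 10677, 10382 and 5033. F8, coagulation factor VIII (chrX:75172715-75382615), held 4871, 7135 and 6471 against 6293, 4191 and 5305. Thrb, a thyroid hormone receptor (chr14:17660261-18038090), held 5019, 8968 and 5876 against 5254, 3630 and 2430. Ube2e2, Sntg1, Zeb1 and Tmlhe followed, with means of 4733 to 7370 bases in editing-deficient and 4112 to 5694 in Mavs-/- libraries. The most extensive noncoding members were the pseudogenes Gm5834 (means of 2492 and 1207 bases), Cyp2d36-ps (2284 and 1301) and Cfhr3 (1773 and 642). Genes of the mitochondrial genome gave 10 protein-coding and 5 tRNA genes.

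The class also drew on the gene lists for double-stranded RNA sensing and editing, where 5 of 32 genes were protected anywhere and Ifih1 and Stau2, a double-stranded RNA binding protein, in all 6 libraries. Of 28 genes of growth hormone, insulin and glucose metabolism, 8 were protected anywhere, and Fbp1, a gluconeogenic enzyme, Ghr, the growth hormone receptor, and Slc2a2, the glucose transporter of hepatocytes, in all 6. Of 43 very long adhesion and fragile-site genes, 15 were protected anywhere and Fhit, Lrp1b and Sgcz in all 6. Of 79 genes of cytosolic ribosomal proteins, which are short, 3 were protected anywhere and 0 fell in a class. These lists hold no member of either class of 3 against 0. Of all 22028 protein-coding genes, 1542 were protected anywhere and 0.676% in all 6 libraries.

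Within the 174 genes, the bases under peaks were higher in every editing-deficient than in every Mavs-/- library in 13 (7.47%) and lower in 2 (1.15%). The 13 included Abcb11, Adk, Cfhr2, Cfhr3, Fam172a, Fbp1, Fhit, Itfg1, Lrp1b, Rabgap1l, Stau2 and Tbc1d5, and the 2 were Dmwd and Stard4, all named after their values were seen.

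Ifih1, the gene of MDA5 itself (chr2:62595798-62646255, minus strand), held 2534, 2456 and 2564 protected bases in editing-deficient and 2451, 2565 and 2418 in Mavs-/- libraries, in 13 or 14 peaks each. The genotypes overlapped and the 6 values lay close together. Of these bases, 93.0% to 94.7% lay in the coding exons, and all of coding exons 4 to 16 were touched in all 6 libraries, whereas exons 1 and 2, which encode codons 1 to 208, held no base in any. Coding exon 3 was covered in 3 libraries, and its sequence is printed with the covered part in capitals, since the 5′ edge of the protected region falls within it. In editing-deficient replicate 1 and Mavs-/- replicate 2 the peak began at the same base, in codon 230, and in editing-deficient replicate 3 in codon 216.
Ifih1 coding exon 3 (chr2:62635056-62635202): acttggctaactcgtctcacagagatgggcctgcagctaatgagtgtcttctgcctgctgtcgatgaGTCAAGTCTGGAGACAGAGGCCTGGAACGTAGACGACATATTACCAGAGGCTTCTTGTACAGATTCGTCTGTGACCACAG

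According to the study, the MDA5 protein added to these libraries was expressed in bacteria from a mouse sequence that lacks the CARD domains. The study names no exon. The first amino acid it gives for its construct falls within coding exon 3 of the annotation, which holds codons 208 to 257. No Input library held a peak in Ifih1. RNase-only libraries, to which no MDA5 was added, held 5, 1 and 2 peaks in editing-deficient and 16, 0 and 2 in Mavs-/- mice, and Mavs-/- replicate 1 was the only library with peaks over exons 1 and 2. The origin of these reads was not tested.

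Of the genes the study followed further, none was in a class of 3 against 0. The study's rule was another one, applied to peaks rather than genes. It kept peaks that lay near a peak of another replicate. Bases under RNase-only peaks and under peaks of the other genotype were subtracted, so the values below do not check its choice. Rnf168, a ubiquitin ligase of the DNA damage response, held 214, 193 and 0 protected bases in editing-deficient and 0, 229 and 0 in Mavs-/- libraries. Knl1, a kinetochore scaffold, held 125, 111 and 0 against 124, 129 and 131, and Zkscan3, a zinc finger gene, 0, 131 and 188 against 0, 0 and 256. In each of the 3 genes the genotypes overlapped. Adar and Mavs held no protected base in any of the 6 libraries.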

How the data were processed

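Peaks on GRCm38 were called by the authors for each library and strand with Genrich 0.6.1 after trimming by Trim Galore 0.6.6 (adjusted p of at most 0.01, area of at least 500, gap of at most 20 bp), the Input of the same genotype serving as control. The deposited score of a peak, the area under its significance curve, ranked peaks within each list. Raw and adjusted significance, deposited as −log10 values, entered no comparison. The lists hold no counts, so a gene without a peak may lie below the detection limit of its library.

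Samples were grouped by the titles and genotype labels, with none left out. Genes were the bodies of GENCODE M21, on the GRCm38 build of the lists (the study used another release for annotation), and an overlap of 1 bp counted. For library values, exact permutation tests (two-sided, 3 against 3) were used, with Benjamini-Hochberg adjustment over 5 comparisons. Classes of genes are described without a test. Clopper-Pearson and order-statistic intervals are at 95%. On simulated libraries with 380 planted genes, the 3 classes were returned complete when tested.

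Named genes were, by mean protected bases, the first 12 coding genes of the editing-deficient class, the first 8 of each other class and the first 3 noncoding genes of each, members of the 19 gene lists in a class of 3 against 0, and the genes followed by the study, some of which are not reported here. Members and lists were chosen with earlier results of these data known. Alternatives were equal numbers of peaks (the 1180 of largest area), a minimum area of 1000, the middle base of a peak, coding genes only, RNase-only overlaps left out, strand ignored, peaks in several genes left out, Input exon peaks in at least 2 libraries, 2 or 3 of 3 libraries, each replicate left out and the replicate block. Leaving out intestinal genes or genes seen in exons of digested libraries alone, and a base common to the libraries of a class, were chosen after seeing the data. No genome sequence was used here, so intronic stretches are given by position. Python 3.11.15, numpy 2.4.6, pandas 2.3.3 and scipy 1.17.1 were used.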

Additional observations from a re-analysis of the deposited data

Results flagged for a closer look

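More intestinal epithelium genes had an exon peak in the RNase-only fraction, which the comparison of protected genes does not use, than in undigested RNA. RNase-only peaks were called with Input as control, so these numbers of genes do not compare RNA levels. Of the 50 listed genes, 28 had an exon peak in all 6 RNase-only and in no Input library. Between 33 and 40 genes had one in each RNase-only library and at most 4 in any Input library.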

How the results depend on the processing

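Of 73 recomputed library comparisons, 69 kept their direction. Both numbers include the 5 comparisons with the replicate block, which reuse the main differences and so could not change direction. With a minimum area of 1000, the difference in the Input exon share turned to -4.24 percentage points and that in protected bases to -32, and with strand ignored the latter was -2.67. Leaving out single libraries gave differences of 335.5 to 546 genes, -1339 to 9350 bp in median length, 1.51 to 4.98 points in the Input share, 7.96 to 16.3 points in the intronic share and 17.6 to 74.7 bases.

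The editing-deficient class of 89 genes held 33 with equal numbers of peaks, 22 at an area of 1000, 46 without RNase-only overlaps, 295 at 2 or 3 of 3 libraries and 95 to 202 with a library left out. The Mavs-/- class of 13 held 25, 4, 7 (coding genes only), 33 and 15 to 22 under equal numbers, the area, coding genes, 2 or 3 of 3 and left-out libraries. Its median length of 19099 bp was 114256 bp at an area of 1000, 81295 bp with strand ignored, 67264 bp with coding genes only, 38498 bp without RNase-only overlaps, 34539 bp with equal numbers, 31526 bp without peaks in several genes or without genes seen in exons of digested libraries alone, and 19099 to 31914 bp with a library left out, so that a shorter length than in the editing-deficient class did not hold under every setting. The 174 genes of all 6 libraries became 49 at an area of 1000 (median length 51365 bp, 51.0% with an Input exon peak), 48 without RNase-only overlaps and 178 to 215 with a library left out. Leaving out genes seen in exons of digested libraries alone raised its Input share to 45.1%, and 2 Input libraries instead of 1 gave 29.3% there and 33.7% in the editing-deficient class. The median length of the editing-deficient class was 60711 to 87974 bp with a library left out. The causes were not tested.

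Same-numbered libraries deviated together by correlations of 0.0106 to 0.0323, and libraries of other numbers by -0.0348 to 0.0190. Such small values cannot show whether equal numbers mark samples handled together, and pairing was not tested. With the replicate block (sign flips, exact), the differences of 416 genes, 5281 bp, 2.83 and 10.9 points and 44.5 bases had p = 0.25, 0.25, 0.50, 0.25 and 0.75, where 0.25 is the smallest possible. Without counts, the depth that limits a missing peak is unknown.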
